A study of Mus musculus with 3 samples.

Results

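The genes described here act in the processing of antigens for MHC class I and were listed by name for their place in that route: Psmb8, Psmb9, Psmb10, Psme1, Psme2, Tap1, Tap2, Tapbp, Erap1 and Nlrc5. These 10 genes, of 32285 named in the data, were matched by symbol, and each had at least 1 unique molecular identifier (UMI, the tag that counts a captured transcript once) in the kept cells of every library. The 3 groups were C57BL/6JRj mice of 3 months (called young), of 12 (adult) and of 23 (old), and their retinas were dissociated and enriched with magnetic beads for CD31, a surface protein of endothelial cells, before droplet 3′ RNA sequencing. No transgene, deletion or treatment was used at any age, and the design asks how retinal vessel cells differ between ages. Each library held 4 retinas, taken from 2 animals and pooled. Each age was 1 library, so 3 libraries were compared with no replicate. No test between ages was possible, and no p-value is given. All intervals are 95% intervals for counting error alone, and an age difference cannot be told apart from a difference between the 3 libraries.

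Cells show fragments of their own proteins on MHC class I molecules, where cytotoxic T cells read them. The proteasome cuts the proteins, the TAP transporter moves the peptides into the endoplasmic reticulum, and chaperones and a trimming enzyme fit them into the MHC class I groove. Interferon is known to switch on much of this machinery together, including alternative catalytic subunits that turn the standard proteasome into the immunoproteasome, and cells of the immune system and vessel lining carry more of it than neurons do.

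The 3 libraries held 16577026, 19977238 and 17021820 UMIs at 3, 12 and 23 months, and 1707, 1956 and 1699 cells were kept. Clusters took their names from lists of markers, and 7 classes named for a single cell type had at least 30 cells in every library and were compared between ages. Endothelial cells, with 444, 421 and 403 cells at the 3 ages, met all 10 of their markers, including Pecam1, which encodes CD31. Clusters that carried endothelial and pericyte markers together (798 cells) were kept as a class of their own and compared separately, and a cluster of 238 cells with endothelial markers but few UMIs was left unnamed. From 1 to 3 barcodes were shared between the adult library and each of the others, and none between young and old.

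The genes lie in few places. On mouse build GRCm38 (GENCODE M21), Psmb9 (chr17:34181987-34187764, minus strand), Tap1 (chr17:34187553-34197225), Psmb8 (chr17:34197721-34201454) and Tap2 (chr17:34203527-34216321) stand side by side in the MHC region, and Tapbp (chr17:33915899-33929292) lies on the same chromosome. Psme1 (chr14:55578123-55581529) and Psme2 (chr14:55587441-55591113, minus strand) are neighbours, Nlrc5 (chr8:94434356-94527272) and Psmb10 (chr8:105935735-105938444, minus strand) share chromosome 8, and Erap1 is at chr13:74639568-74693201. The genes Psmb9 and Tap1 overlap on opposite strands by 212 bases. Tapbp overlaps Zbtb22 on the same strand by 3422 bases, so its reads there are uncertain, and Psme2 has a near copy, Psme2b, which held 154, 186 and 174 UMIs in all kept cells.

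Promoter windows from RefSeq on GRCm38.p6, from 250 bases before to 50 after a transcript start, were found for 8 of the 10 genes in 9 windows (none for Tap2 and Nlrc5). They were searched on both strands for the interferon-stimulated response element (GAAANNGAAA), the gamma-activated site (TTCNNNGAA) and the CCAAT box (CCAAT), motifs known from interferon-regulated and MHC class I promoters. The 30-base stretches around matches are shown in the direction of the plus strand, with the matched letters in capitals, because they set a gene of about equal level at the 3 ages (Erap1) beside genes that were higher in old endothelial cells.
Psmb8, gamma-activated site, chr17:34198088-34198117: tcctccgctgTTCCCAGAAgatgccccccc
Psme1, response element, chr14:55578493-55578522: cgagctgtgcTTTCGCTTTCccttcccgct
Erap1, response element, chr13:74639839-74639868: ccaccttcacTTTCACTTTCggtcccgggc
Tap1 and Psmb9, CCAAT box, chr17:34187322-34187351: gggctcggctttCCAATcagcggctgcgcg
The response element was present in 3.44%, the gamma-activated site in 8.30% and the CCAAT box in 37.4% of 32851 mouse promoter windows of 300 bases. The Tap1 and Psmb9 windows overlap, since 225 bases separate their starts, so the CCAAT match is the same one seen from both genes, and Tapbp held a pair of further CCAAT matches. These matches are letters in a window and not evidence that a factor binds there.

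In retinal endothelial cells, 9 of the 10 genes had a higher level in the old than in the young library by more than counting error, and the tenth, Erap1, had an interval that includes 1. By the same criterion, 11.9% of the 9448 genes with at least 60 endothelial UMIs were higher. Nlrc5, among the 9 genes, reached 60 UMIs only through the old library, where it was high. Levels are given as CPM, a gene's UMIs for every 1000000 UMIs of its class and library. The summed level of the 10 genes was 1096 CPM at 3 months (95% interval 1060 to 1132), 1220 at 12 months (1183 to 1258) and 1479 at 23 months (1440 to 1519). The old library was 1.35-fold above the young one (1.29 to 1.41), the adult library 1.11-fold above the young one (1.06 to 1.16), and the old library 1.21-fold above the adult one (1.16 to 1.26). The levels therefore stood in the order of age. The cells of the old library were also deeper, with a median of 7561 UMIs against 5642.5 and 6091. When each cell was thinned to 2000 UMIs the ratio of old to young was 1.28, with 1.16 for adult to young and 1.11 for old to adult, so the order of the steps was not the same after thinning.

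**Figure D1:**
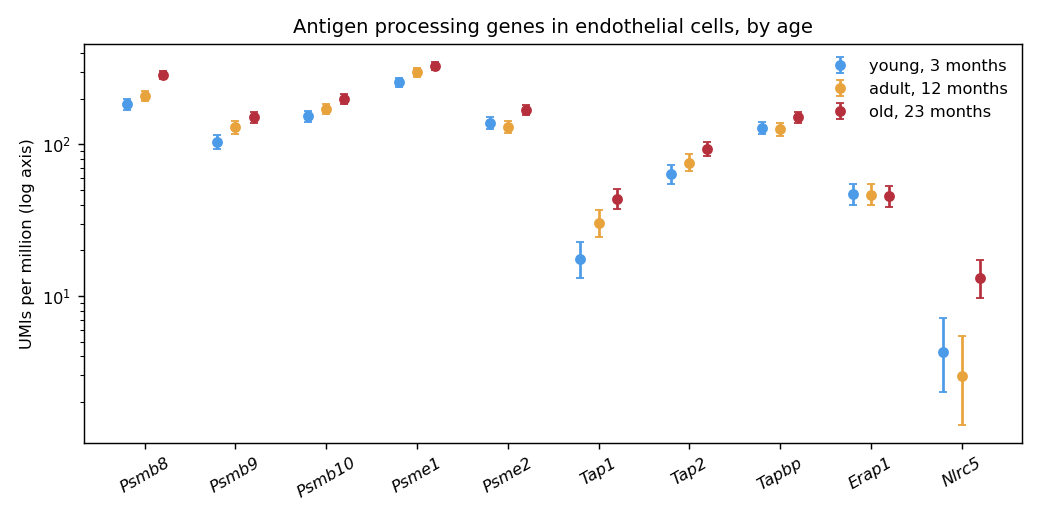
CPM of each of the 10 genes in endothelial cells (vertical log axis) in the young (3 months), adult (12 months) and old (23 months) library, with 95% counting intervals as bars. The old point is the highest for 9 genes, and the 3 Erap1 points lie between 45.3 and 47.1.

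The immunoproteasome subunits were all higher in the old library. Psmb8, which encodes the chymotrypsin-like subunit β5i, was at 184, 209 and 285 CPM at 3, 12 and 23 months in endothelial cells. Psmb9, encoding β1i, was at 104, 130 and 150, and Psmb10, encoding β2i, at 153, 171 and 200. For all 3 the order followed age, and the old library was above the young one by 1.55-fold for Psmb8 (1.40 to 1.72), 1.44-fold for Psmb9 (1.26 to 1.66) and 1.31-fold for Psmb10 (1.17 to 1.47). In the thinned cells the ratio for Psmb8 was 1.36 and that for Psmb9 was 1.55.

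The activator that caps the proteasome showed smaller differences. Psme1 and Psme2 encode the α and β subunits of PA28, the interferon-inducible ring that opens the proteasome gate. Psme1 was at 257, 298 and 329 CPM, and old stood 1.28-fold above young (1.17 to 1.40). Psme2 was at 138, 130 and 168, so adult was no higher than young, and old stood 1.22-fold above it (1.08 to 1.38). After thinning to 2000 UMIs per cell, the Psme2 ratio was 0.975, on the other side of 1.

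Tap1 and Tap2 encode the partners of the peptide transporter, and their ratios were unequal. Tap1 had 57, 102 and 160 UMIs in endothelial cells, which is 17.4, 30.2 and 43.7 CPM, and the old library was 2.51-fold above the young one (1.84 to 3.45). Tap2 was at 63.3, 75.8 and 92.9 CPM, a ratio of 1.47 (1.23 to 1.75). The counting intervals of both ratios do not overlap, so the gap between Tap1 and Tap2 exceeded counting error, although it has no replicate check. Tap1 was also the member with the clearest step by 12 months, at 1.73-fold the young level (1.24 to 2.44). Droplets with endothelial and pericyte markers did not show either difference beyond counting error. There the ratio of old to young was 1.39 for Tap1 (1.03 to 1.87) and 1.14 for Tap2 (0.97 to 1.34), intervals that overlap. Tap1 from adult to young was 1.02 in those droplets (0.75 to 1.39).

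The chaperone and the trimming enzyme had the smallest ratios of the 10 genes without thinning. Tapbp encodes tapasin, the chaperone that bridges TAP and MHC class I, and it was at 128, 126 and 151 CPM (old to young 1.18, 1.04 to 1.34). Erap1, the aminopeptidase that trims peptides inside the endoplasmic reticulum, was at 47.1, 46.5 and 45.3 CPM. The old library stood at 0.96 of the young one (0.77 to 1.21), an interval that excludes the Psmb8 and Tap1 ratios.

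Nlrc5, the transactivator of MHC class I genes, had the fewest UMIs of the 10 genes and the highest ratio. It had 14, 10 and 48 UMIs in endothelial cells at 3, 12 and 23 months, or 4.28, 2.96 and 13.1 CPM. The old library was 3.06-fold above the young one (1.66 to 6.01) and 4.43-fold above the adult one (2.21 to 9.81), and adult and young did not differ beyond counting error (0.69, 0.27 to 1.67). The UMIs were spread over cells, with at least 1 in 11 young, 9 adult and 41 old cells. In cells thinned to 2000 UMIs it was seen in 6, 3 and 8 cells and the ratio of old to young was 1.40, so at equal depth this difference was not detectable.

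The same levels were set beside all genes at a fixed fold. A ratio of at least 1.5 was reached by 3 of 10 genes (Psmb8, Tap1 and Nlrc5), while 5.39% of the 9448 genes reached it. Nlrc5 met the minimum of 60 UMIs only through the old library, where it was high, and without it the count was 2 of 9. No member was lower by 1.5-fold, against 3.52% of all genes. Tap2 at 1.47 and Psmb9 at 1.44 lay just under this fold. The median log2 ratio was 0.46 over the 10 genes, with Nlrc5 still included, and 0.03 over all genes tested. For adult against young, 1 member (Tap1) reached 1.5-fold, against 3.74% of all genes, and for old against adult Nlrc5 alone did, against 3.3%, so that without it the count was 0 of 9. Thinning again gave 3 members past 1.5-fold from old to young, but they were Psmb9, Tap1 and Tap2.

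Markers of other cell types were counted in the endothelial class. Those of granulocytes had 36, 402 and 0 UMIs at 3, 12 and 23 months, with none of the 5 genes seen in the old library. Those of B cells summed to 1.22, 27.0 and 6.55 CPM, and those of microglia to 41.0, 39.7 and 38.8. T cell markers stayed at or below 1.37 CPM. None of these 4 lists was highest at 23 months except that of T cells, which had 5 UMIs. When endothelial cells with any B cell, T cell or granulocyte marker were left out, an alternative chosen after seeing the data, the ratio of old to young of the 10 genes was 1.36. Pericyte markers were lower in the old endothelial class (1931, 2034 and 1271 CPM), while Müller glia markers (763, 946 and 1172) and erythroid markers (938, 896 and 1386) were higher. Markers of rods (49.6, 93.6 and 111 CPM), cones (46.2, 66.1 and 79.5) and pigment epithelium (1.53, 2.67 and 26.2) were higher as well, and the part of all these in the result was not tested.

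**Figure D2:**
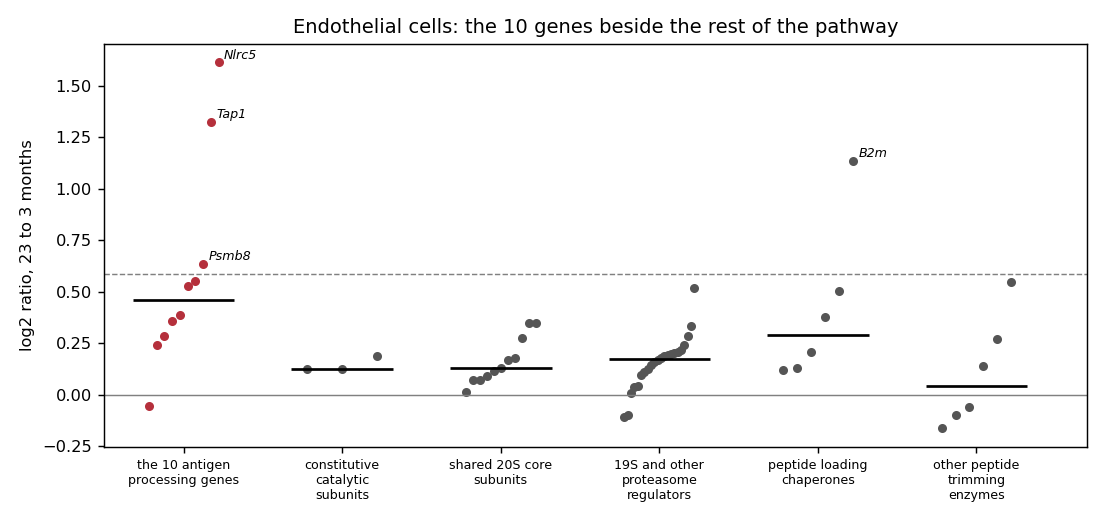
Log2 ratio of old to young in endothelial cells (vertical axis) for the 10 genes (red) and 5 other lists of the pathway (grey), 1 point a gene, with the list median as a black bar and 1.5-fold as the dashed line. The median is 0.46 for the 10 genes and between 0.04 and 0.29 for the other lists, and the named points are those at or past 1.5-fold.

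The rest of the proteasome did not reach 1.5-fold in the same cells, but single genes were as high as several of the 10. The standard catalytic subunits that the inducible ones replace gave ratios of old to young of 1.14 for Psmb5 (1.00 to 1.29), 1.09 for Psmb6 (0.98 to 1.21) and 1.09 for Psmb7 (0.93 to 1.28). None of 11 shared core subunits and none of 22 genes of the proteasome's caps and assembly factors reached 1.5-fold, and the median log2 ratios of these lists were 0.13 and 0.17. Psme3, the third PA28 subunit, which forms the nuclear cap, was at 1.12 (0.79 to 1.58). The intervals of 5 of the 11 core subunits lay above 1, against 11.9% of all genes tested, with Psma1 (1.27, 1.11 to 1.47) and Psmb2 (1.27, 1.13 to 1.44) at the top. Those of 6 of the 22 other genes did too, with Psmd14 (1.43, 1.15 to 1.79), the deubiquitinase of the cap, the highest.

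Among the loading chaperones, 1 of 6 reached 1.5-fold, against 5.39% of all genes tested. It was B2m, the light chain of MHC class I, at 842 and 1851 CPM in the young and old library, a ratio of 2.20 (2.10 to 2.30). The intervals of 4 of the 6 chaperones lay above 1, against 11.9% of all genes tested. None of 6 other trimming enzymes tested reached 1.5-fold. Among regulators of these genes, the interferon-responsive transcription factors Irf7 (2.97, 2.65 to 3.34) and Stat2 (1.54, 1.25 to 1.91) reached it, and Irf1, an activator of several of the 10 genes, stood at 0.996 (0.84 to 1.18).

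The exchange of catalytic subunits was followed as the inducible gene's share of the UMIs of its pair. This share does not depend on the class total, but 3′ tags of different genes need not be captured alike, so it is compared between libraries and classes and is not a ratio of proteins. In endothelial cells Psmb8 made up 57.6%, 59.9% and 64.9% of the UMIs of Psmb8 and Psmb5 at 3, 12 and 23 months, and the young interval (54.5 to 60.6%) did not overlap the old one (62.5 to 67.3%). Psmb9 made up 34.7%, 40.1% and 41.3% of its pair with Psmb6, with most of the gap between 3 and 12 months. Psmb10 made up 63.4%, 64.9% and 67.5% of its pair with Psmb7, with overlapping intervals. Over all 6 genes the inducible share in endothelial cells was 51.2% (49.3 to 53.1%), 54.5% (52.7 to 56.2%) and 57.8% (56.2 to 59.3%), in the order of age. In droplets with endothelial and pericyte markers this share was no higher at 12 than at 3 months. It was 45.80% (44.21 to 47.39%), 44.99% (43.21 to 46.78%) and 51.61% (49.96 to 53.27%) at 3, 12 and 23 months. The Psmb9 share in those droplets was 30.19%, 30.05% and 35.23%, with overlapping intervals and no step by 12 months.

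**Figure D3:**
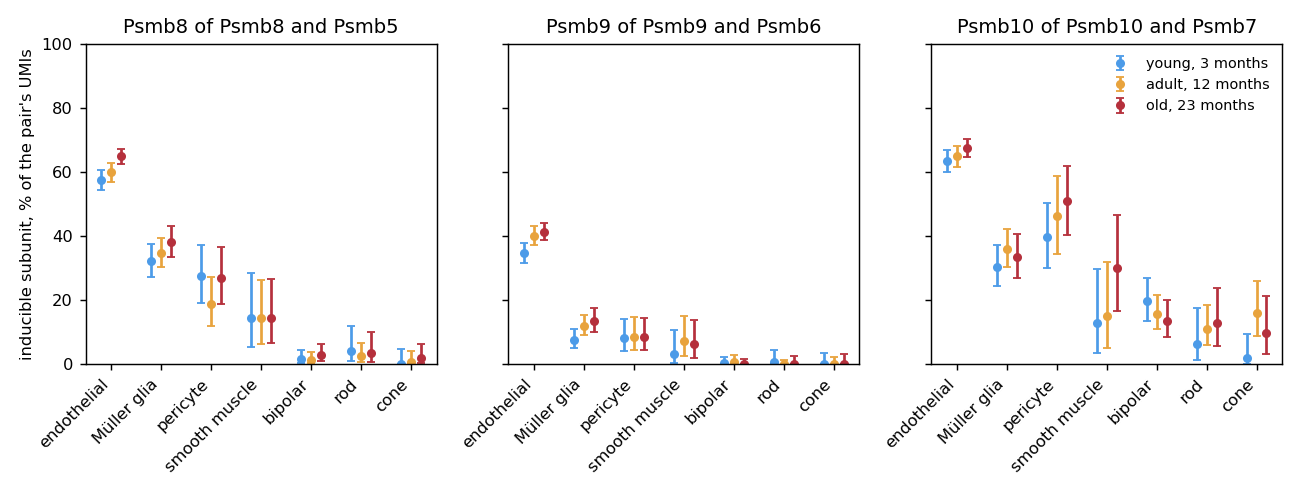
Share of each pair's UMIs that came from the inducible subunit (vertical axis, %), for 7 cell classes and 3 ages, with exact 95% counting intervals as bars. Endothelial cells have the highest share in each panel, and in rods, cones and bipolar cells the Psmb8 share stays at or below 4.23%.

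Per cell, UMIs of the 10 genes were spread over most of the endothelial class. After thinning to 2000 UMIs, the mean number of UMIs from the 10 genes was 2.26, 2.62 and 2.89 per cell, and 13.6%, 10.9% and 10.3% of cells had none. The share of cells with 5 or more such UMIs was 11.1%, 13.6% and 21.1%. The tenth of cells with the most held 26.1%, 24.5% and 24.1% of the UMIs. At counts this low that share also depends on the mean, so it cannot decide whether a small group of cells was higher in the old library. Without thinning, 97.3%, 98.1% and 98.3% of endothelial cells had at least 1 UMI, against 27.6%, 28.6% and 26.0% of rods, whose median depth was 2299, 2469.5 and 2144 UMIs. At equal depth, the share was 86.4%, 89.1% and 89.7% of 434, 403 and 399 endothelial cells and 21.2%, 22.4% and 23.4% of 104, 214 and 137 rods. Cells with fewer UMIs could not be thinned, which removed 10, 18 and 4 of the endothelial class and 59, 94 and 90 of the rods.

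Across cell classes the summed level, pooled over ages, ran from 1614 CPM in B cells to 97.0 in cones. B cells (144 cells) and a mixed class of T cells and microglia (51 cells, 1458 CPM) did not differ beyond counting error. Endothelial cells followed at 1273, droplets with endothelial and pericyte markers at 1040, Müller glia at 556, pericytes at 469, smooth muscle at 391, bipolar cells at 183 and rods at 129. Droplets with endothelial and erythroid markers (774) and the unnamed cells (581) lay between. Ages are mixed in these values, and not every neighbour was apart at each age. Pericytes (519 to 658) and Müller glia (539 to 617) overlapped at 23 months, bipolar cells (151 to 201) and rods (117 to 182) did too, pericytes and smooth muscle overlapped at all 3 ages, and so did rods and cones. At 3 months alone, B cells (10 cells, 960 to 1643), T cells with microglia (9 cells, 1066 to 1618) and endothelial cells (1060 to 1132) overlapped. T cells with microglia (1392 to 1873) and endothelial cells (1440 to 1519) overlapped at 23 months as well.

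**Figure D4:**
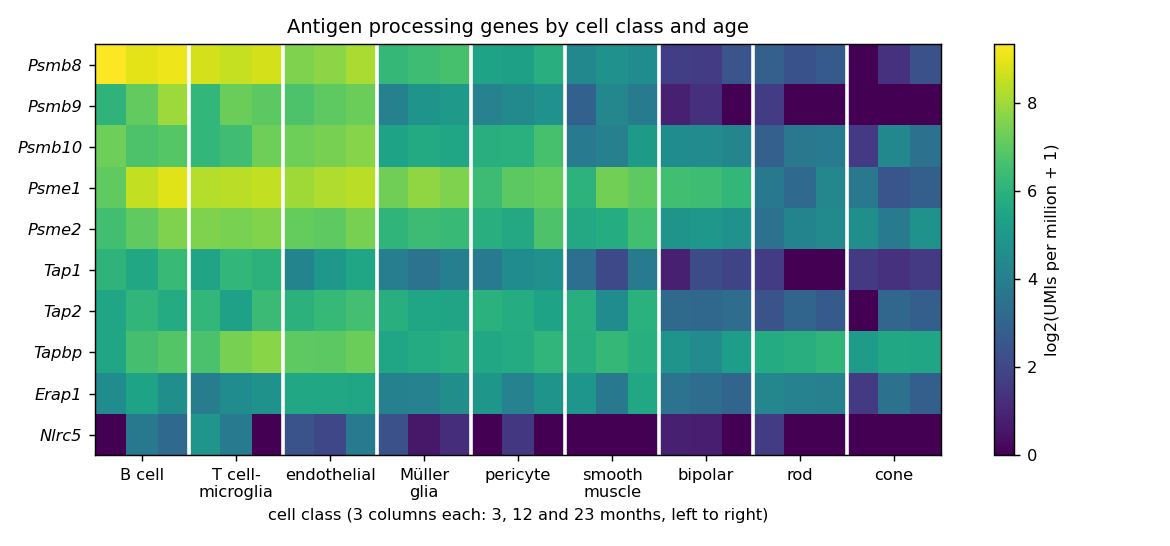
Heat map of log2(CPM + 1) for the 10 genes (rows) in 9 cell classes, with the 3 ages of each class as neighbouring columns. Psmb8, Psmb9 and Tap1 are dark in bipolar cells, rods and cones, while Tapbp stays at 21.9 CPM or above in those classes.

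The immune classes gave 1268, 1491 and 1835 CPM in B cells and 1321, 1422 and 1619 in T cells with microglia at 3, 12 and 23 months. With 10 B cells and 9 cells of the other class at 3 months, the young intervals reach 1643 and 1618, so a difference between young and adult was not detectable at this depth. The old interval of B cells (1670 to 2013) lay above both the young and the adult one (1359 to 1632). The inducible share of the 6 catalytic genes was 72.2%, 72.0% and 72.5% in B cells, above the endothelial share at each age and level across ages. Of the pairs behind it, Psmb9 had 3 of 11, 43 of 81 and 61 of 88 UMIs, and Psmb8 29 of 32, 158 of 192 and 134 of 176, with overlapping intervals between ages in both.

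Free RNA was gauged by the endothelial marker genes, which stood in rods at 0.55%, 0.23% and 0.88% of their endothelial level, in pericytes at 5.31%, 6.22% and 7.22%, and in Müller glia at 8.90%, 8.19% and 8.45%. The 10 genes stood higher than that in each of these classes, at 9.92 to 10.7% of the endothelial level in rods, 36.0 to 39.6% in pericytes and 39.0 to 48.3% in Müller glia. In bipolar cells, however, Psmb8 was at 1.25%, 1.01% and 1.59% of its endothelial level and Psmb9 at 0.73%, 1.09% and 0%, beside 1.25%, 1.05% and 0.86% for the endothelial markers. Counts of these 2 genes in bipolar cells, at most 5 in a library, are read as background.

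The neurons kept part of the route and not the rest. In rods, Tapbp had 25, 56 and 39 of the 56, 120 and 85 UMIs of the group, or 52.5, 57.6 and 67.3 CPM, which was 41.0%, 45.8% and 44.5% of its endothelial level. Psmb9 had 1, 0 and 0 UMIs in rods and 0 in all 3 cone libraries, where the 3 UMIs that a count of 0 allows would be 4.47 CPM for adult and 6.03 for old cones. Tap1 likewise had 1, 0 and 0 UMIs in rods and 1 in each cone library. Bipolar cells held Psme1 at 89.9, 84.7 and 71.8 CPM, but Psmb8 at 2.29, 2.12 and 4.54. Erap1 in rods was at 40.1%, 35.4% and 34.3% of its endothelial level. Transcripts of Tapbp in rods and of Psme1 in bipolar cells were thus measured where Psmb8 and Psmb9 were at or near background. Psme1 was low in the photoreceptors, with 6, 8 and 11 UMIs in rods and 6, 3 and 3 in cones. Psmb10 was not so low, with 29, 31 and 20 UMIs in bipolar cells, where it made up 19.6%, 15.8% and 13.5% of its pair with Psmb7.

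**Figure D5:**
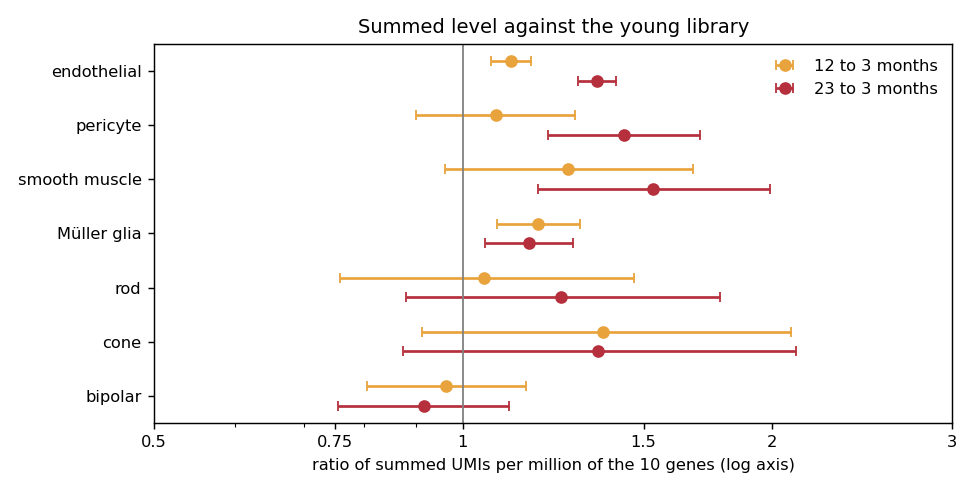
Ratio of the summed level of the 10 genes to the young library (horizontal log axis) at 12 months (orange) and 23 months (red) in 7 cell classes, with exact 95% counting intervals as bars. At 23 months the intervals of endothelial cells, pericytes, smooth muscle and Müller glia lie above 1, and those of rods, cones and bipolar cells include 1.

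Pericytes, the contractile support cells of capillaries, had summed levels of 408, 439 and 586 CPM with old 1.44-fold above young (1.21 to 1.70) and no difference between adult and young beyond counting error (1.08, 0.90 to 1.29). Of 6 genes with at least 60 UMIs, 3 reached 1.5-fold, against 8.65% of 4418 genes tested in pericytes. These were Psmb10 (58.5, 59.3 and 96.2 CPM, 1.64-fold, 1.05 to 2.59), Psme1 (82.5, 126 and 138, 1.67-fold, 1.15 to 2.44) and Psme2 (57.0, 48.2 and 105, 1.83-fold, 1.18 to 2.88). Psmb8, with 28, 21 and 28 UMIs, gave 1.39 (0.80 to 2.44), and Tap2, with 41, 29 and 20 UMIs, was the only one of the 6 with a ratio under 1, at 0.68 (0.38 to 1.19). Markers of other classes moved with this difference in the pericyte class: endothelial ones from 834 to 1009 and 1205 CPM, erythroid ones from 14 to 22 and 193 UMIs, and smooth muscle ones from 1829 to 3113 and 2629 CPM. With that endothelial RNA subtracted, the ratio was 1.40, and the part of the other markers was not tested.

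Smooth muscle cells, 38, 38 and 37 in number, gave 306, 387 and 468 CPM and old stood 1.53-fold above young (1.18 to 1.99) from 168 and 94 UMIs. With each cell thinned to 2000 UMIs, the ratio was 2.57. The markers of this class moved too, with pericyte markers at 9301, 9087 and 4715 CPM and smooth muscle markers at 26375, 31402 and 33464, and their part in the result was not tested. Of 3 genes with enough counts, 2 reached 1.5-fold, against 10.2% of genes: Psme1 (65.0, 162 and 128 CPM, 1.97-fold, 1.14 to 3.52) and Psme2 (48.8, 53.9 and 89.1, 1.83-fold, 0.96 to 3.63). Psme2 and Tapbp met the minimum of 60 UMIs only through the old library, which leaves Psme1 alone. The inducible share in these cells was 8.70% at 3 months and 14.2% at 23 months, from 12 and 25 inducible UMIs, with overlapping intervals. Nlrc5 had no UMI here, where 3 UMIs would be 9.75, 9.52 and 8.35 CPM.

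Müller glia, the radial glia of the retina, had a higher summed level at 12 than at 3 months, with no difference beyond counting error between 12 and 23 months. The level was 497, 589 and 577 CPM, with 1.18 for adult to young (1.08 to 1.30), 1.16 for old to young (1.05 to 1.28) and 0.98 for old to adult (0.90 to 1.07). In this class markers of rods (448, 1090 and 683 CPM) and bipolar cells (279, 457 and 216) were highest at 12 months and those of astrocytes (131, 65.0 and 81.2) at 3 months, and their part in the result was not tested. Of 9 genes tested, 1 reached 1.5-fold from young to old, against 6.11% of genes. It was Psmb9, at 16.4, 27.7 and 31.5 CPM, 1.93-fold (1.16 to 3.27). Psmb8 was at 73.3, 85.8 and 97.9 CPM (1.34, 1.04 to 1.72), and Tap1 at 15.1, 10.7 and 15.4 (1.02, 0.55 to 1.91). The inducible share of the 6 catalytic genes was 22.7%, 26.6% and 28.0%, with overlapping intervals, and without the endothelial RNA it was 18.4%, 22.6% and 22.7%.

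In the neurons the summed level did not differ between ages beyond counting error. For the summed level, old over young was 1.25 in rods (0.88 to 1.78). Cones gave 1.35 (0.87 to 2.11) and bipolar cells 0.92 (0.75 to 1.11). None of the 1, 1 and 4 genes with enough counts reached 1.5-fold, against 7.69%, 7.38% and 4.53% of genes in these classes. For rods and cones the intervals include the endothelial ratio of 1.35, so a difference of that size could not be told from none at this depth, while the bipolar interval excludes it. For Psmb10 in cones, with 1, 13 and 5 UMIs, the interval of adult to young lay above 1 (9.53, 1.43 to 405).

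Droplets with endothelial and pericyte markers gave 975, 927 and 1254 CPM, so the adult library was lowest (adult to young 0.95, 0.91 to 0.99) and the old one 1.29-fold above the young (1.23 to 1.34). The intervals of 8 of the 10 genes lay above 1 from young to old, with those of Erap1 (ratio 1.04) and Tap2 (1.14) including it. Among genes with at least 60 UMIs in this class, 11.6% had an interval above 1. Nlrc5, among the 8, was under that minimum, with 11, 11 and 25 UMIs, so it is not part of that comparison. Its ratio was 3.03 (1.44 to 6.82), in cells that are separate from those of the endothelial class.

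Across the 7 classes and 3 libraries (21 points that share libraries and depth), the genes whose log2(CPM + 10) ran closest to the summed level, of 12098 ranked, were Gbp7 (Pearson r = 0.98), Reck (0.98), Irf9 (0.97), B2m (0.97), Dap (0.97), Bst2 (0.97), Ifi35 (0.97), Mapk3 (0.97), Ddx58 (0.97) and Id1 (0.96). Within the group, Psmb8 (0.95) and Psmb9 (0.95) ran closest to the sum of the other 9 genes, and Tapbp (0.64) and Nlrc5 (0.62) least.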

How the data were processed

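The 3 libraries of CD31-enriched mouse retina (10x Genomics chemistry), 1 per age, were analysed. The authors deposited raw UMI counts per gene and barcode, made with Cell Ranger 6.1.2 on mm10 per the submitters' processing notes. The settings of the cell call are not given in the sources used here. The matrices held 2491, 3243 and 2751 barcodes, more than the cell numbers in the study's methods. Counting by gene assigns each read to 1 gene, so reads shared with overlapping genes or near copies are lost.

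Cells with 500 to 6000 genes and 1 to 20% mitochondrial UMIs were kept. Scrublet (scanpy 1.11.5) marked 6, 18 and 14 doublets, which were left out, a weak call at 0.35 to 0.91%. Cells were integrated (canonical correlation, 2000 features without the genes described and their pathway, 30 components) and clustered at resolution 0.5 in Seurat 5.3.0 (R 4.3.3). A cluster was named from at least 3 markers detected in 20% of its cells at 25% or more of the highest cluster's level. UMIs were summed per class and library and divided by the class total. Levels have exact Poisson intervals, ratios exact conditional binomial ones and shares Clopper-Pearson ones (scipy 1.17.1), all at 95% and checked on simulated counts. A count of 0 allows up to 3 UMIs. Genes needed 60 UMIs over the 3 libraries of a class to enter the 1.5-fold counts. The rule for named genes was all 10 genes in each compared class, up to 4 per pathway list past 1.5-fold, the partners Psmb5, Psmb6, Psmb7 and Psme3, and the 10 genes of highest r. Among the pathway genes, Psma1, Psmb2, Psmd14 and Irf1 fall outside this rule and were chosen after seeing values. Genes and lists were chosen with earlier results of these data known. All 10 genes were matched to GENCODE M21 by identifier, and promoters to RefSeq by symbol. Alternatives varied the cell limits, doublets, class assignment, depth, scaling, filters, fold and free RNA. The list of regulators is given for single genes only, and part of it is not reported here.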

Additional observations from a re-analysis of the deposited data

Results flagged for a closer look

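Psme1 stood on opposite sides of 1 between the old and adult libraries in 2 classes. In endothelial cells it was 1.11-fold higher at 23 than at 12 months (1.02 to 1.20), and in Müller glia the ratio was 0.85 (0.73 to 0.99), from 275 and 408 UMIs. Both intervals end close to 1 and cover counting error only, and the difference between the classes was not tested, since each age is 1 library.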

How the results depend on the processing

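With 1 library per age, counting error is the only error that can be given, and low counts (Nlrc5 everywhere, most genes in rods and cones) limit what can be seen. No paired analysis was possible because every library carries the same replicate number and each group has 1 library, so no replicate could be left out either. Of 84 alternative values of the summed ratios, 78 stayed within the counting interval of the reported one, as did 513 values for single genes, with 9 outside it and 1 (Psme2) past 1 from a ratio whose own interval excluded 1. The endothelial summed ratio of old to young lay between 1.28 and 1.38 under all alternatives. The cause of the differences below was not tested.

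Thinning to 2000 UMIs moved the summed ratio of old to young to 1.28 in endothelial cells and 2.57 in smooth muscle, that of old to adult in endothelial cells to 1.11, and Psme2 from old to young to 0.975. The mean of the level per cell gave 1.13 for old to adult. Counting mixed endothelial-pericyte droplets as endothelial gave 1.04 for adult to young and 1.29 for old to adult. At a fold of 2, the members past it were 0 for endothelial adult to young, pericytes, smooth muscle and Müller glia. The other counts are at 1.5-fold, and no share of all genes is given beside them. Without a filter on low counts, the members past 1.5-fold were 5 in pericytes, 5 in smooth muscle, 3 in rods, 4 in cones and 2 in bipolar cells. With at least 150 UMIs they were 1 in pericytes (1 gene tested), 0 in Müller glia and 0 for endothelial old to adult. Thinned, they were 2 for endothelial adult to young and 1 in pericytes, and with each cell assigned by its own markers 2 for endothelial old to adult. That assignment gave inducible shares of 34.7%, 35.5% and 39.9% in pericytes at 3, 12 and 23 months, 16.7% in adult smooth muscle and 21.2% in adult Müller glia. Subtracting free endothelial RNA gave 18.4%, 22.6% and 22.7% in Müller glia. Stricter cell limits gave 0% and 2.05% in young and adult cones and 7.78% in young bipolar cells.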
